A study of Mus musculus with 28 samples.

Results

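The genes described here are 9 transcription factors of cardiac and splanchnic mesoderm, chosen by name among the 24015 genes of a count table: Isl1, Nkx2-3, Nkx2-5, Hand1, Hand2, Tbx20, Tbx5, Tbx3 and Mef2c. All 9 were found in the table, and 8 passed the filter on low counts. The table holds RNA sequencing counts from 28 libraries of 100 sorted cells each, and every mouse embryo carried the transgene labelled 23GFP. At embryonic day 8.5 (E8.5) there were 4 libraries of hemogenic endothelium (HE), the endothelium from which blood cells arise, and 3 of endothelial cells (EC). At E9.5 the populations were pro-HSC/HPC, HE and EC, and at E10.5 they were pre-HSC II, pre-HSC I, HE and EC, with 3 libraries each. The labels give the tissue as AGM+VU for the E10.5 libraries and as PAS+VU for both earlier days, so at E10.5 day and tissue cannot be told apart. The sources used here give neither the number of embryos in a pool, nor the driver of the transgene, nor the sort gates.

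These factors are best known from the heart and the mesoderm around the gut. Isl1, a LIM-homeodomain protein, marks progenitors of the second heart field, and Nkx2-5, Tbx5, Tbx20, Hand1, Hand2 and Mef2c act in the network that builds the heart tube. Nkx2-3 is a homeodomain factor of the mesoderm around the gut and of spleen vessels. Tbx3 represses the working muscle programme in the conduction system, and Mef2c is also used by endothelium, myeloid and lymphoid cells. Blood-forming endothelium of the aorta lies next to splanchnic mesoderm.

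In the build of the files, mm9, Isl1 lies on the minus strand of chromosome 13 (117088478 to 117099896) and Nkx2-3 on the plus strand of chromosome 19 (43686815 to 43690382). Tbx3 lies on the plus strand of chromosome 5 (120120871 to 120134733), on the same chromosome and strand as Tbx5 (120284672 to 120335227). Mef2c lies on the plus strand of chromosome 13 (83643033 to 83806684). Hand1 is on chromosome 11 (57642215 to 57645649), Hand2 on chromosome 8 (59799780 to 59803314), Tbx20 on chromosome 9 (24525256 to 24578747) and Nkx2-5 on chromosome 17 (26975610 to 26978510). No exon of a member shared a base with an exon of another gene in the table.

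The promoters of Isl1 and Nkx2-3 are shown because these 2 members were higher in HE than in EC. Each window is the 250 bases before the start in RefSeq (build GRCm38.p6), on the gene's strand, at chr13:116309689-116309938 for Isl1 (minus strand) and chr19:43612075-43612324 for Nkx2-3 (plus strand). Capitals mark matches to 7 short motifs searched on both strands.
Isl1: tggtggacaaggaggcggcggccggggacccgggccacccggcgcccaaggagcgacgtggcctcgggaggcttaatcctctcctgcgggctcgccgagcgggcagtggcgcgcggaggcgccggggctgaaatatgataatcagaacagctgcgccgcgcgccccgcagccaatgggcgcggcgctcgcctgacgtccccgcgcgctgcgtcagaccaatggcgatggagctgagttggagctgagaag
Nkx2-3: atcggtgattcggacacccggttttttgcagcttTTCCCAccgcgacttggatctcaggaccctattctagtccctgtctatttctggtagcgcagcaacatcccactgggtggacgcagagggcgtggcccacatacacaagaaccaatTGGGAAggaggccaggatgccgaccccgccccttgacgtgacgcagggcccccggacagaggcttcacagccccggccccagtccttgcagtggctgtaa
The Isl1 window held none of the 7 motifs, and its GC content was 71.2%. The Nkx2-3 window, with a GC content of 60%, held matches 216 bases before the start on the opposite strand and 100 bases before it on the gene's strand. Both matches are to TGGGAA, the RBPJ motif, which 21.6% of all 32851 RefSeq windows of this length held. The other motifs were the RUNX motif TGNGGT, held by 40.1% of the windows, and the GATA motif AGATAA, held by 9.99%. Also searched were the ETS motif CCGGAA, in 12% of the windows, and the NKX2 motif CAAGTG, in 11.6%. The T-box motif GGTGTG was in 16.3% of the windows, and the TATA motif TATAAA in 12.4%. None of the 7 motifs overlapped another in these 2 windows, and a match is a description of letters, not a binding site.

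Libraries held 16308918 to 31405603 counts, and levels are given in CPM, counts per 1000000 counts of a library after TMM scaling. The label checks ran as follows. Runx1, required for blood formation, averaged 2.76 CPM in HE against 3.61 in EC at E8.5. It averaged 35.0 against 3.42 at E9.5 and 45.0 against 2.17 at E10.5. At E8.5 the libraries overlapped (1.03 to 3.46 CPM in HE, 1.25 to 5.14 in EC), so Runx1 did not set E8.5 HE apart from EC. Cdh5, the endothelial cadherin, averaged 329 CPM in HE against 105 in EC at E8.5 and 785 against 518 at E9.5. In pre-HSC II Cdh5 averaged 77.2 CPM, and Ptprc (CD45) reached 100.0 CPM. Among lists of markers of other cell types, the 14 mesenchyme and smooth muscle genes stood apart in E9.5 EC replicate 3 (level 4.34, the mean log2(CPM + 1) over the list), E10.5 HE replicate 1 (4.34), E10.5 EC replicate 2 (3.73) and pre-HSC I replicate 1 (3.6), against 1.02 to 2.63 in the others. The erythroid list stood apart in pro-HSC/HPC replicates 2 and 3 (5.86 and 5.09) and pre-HSC I replicate 3 (3.98).

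**Figure D1:**
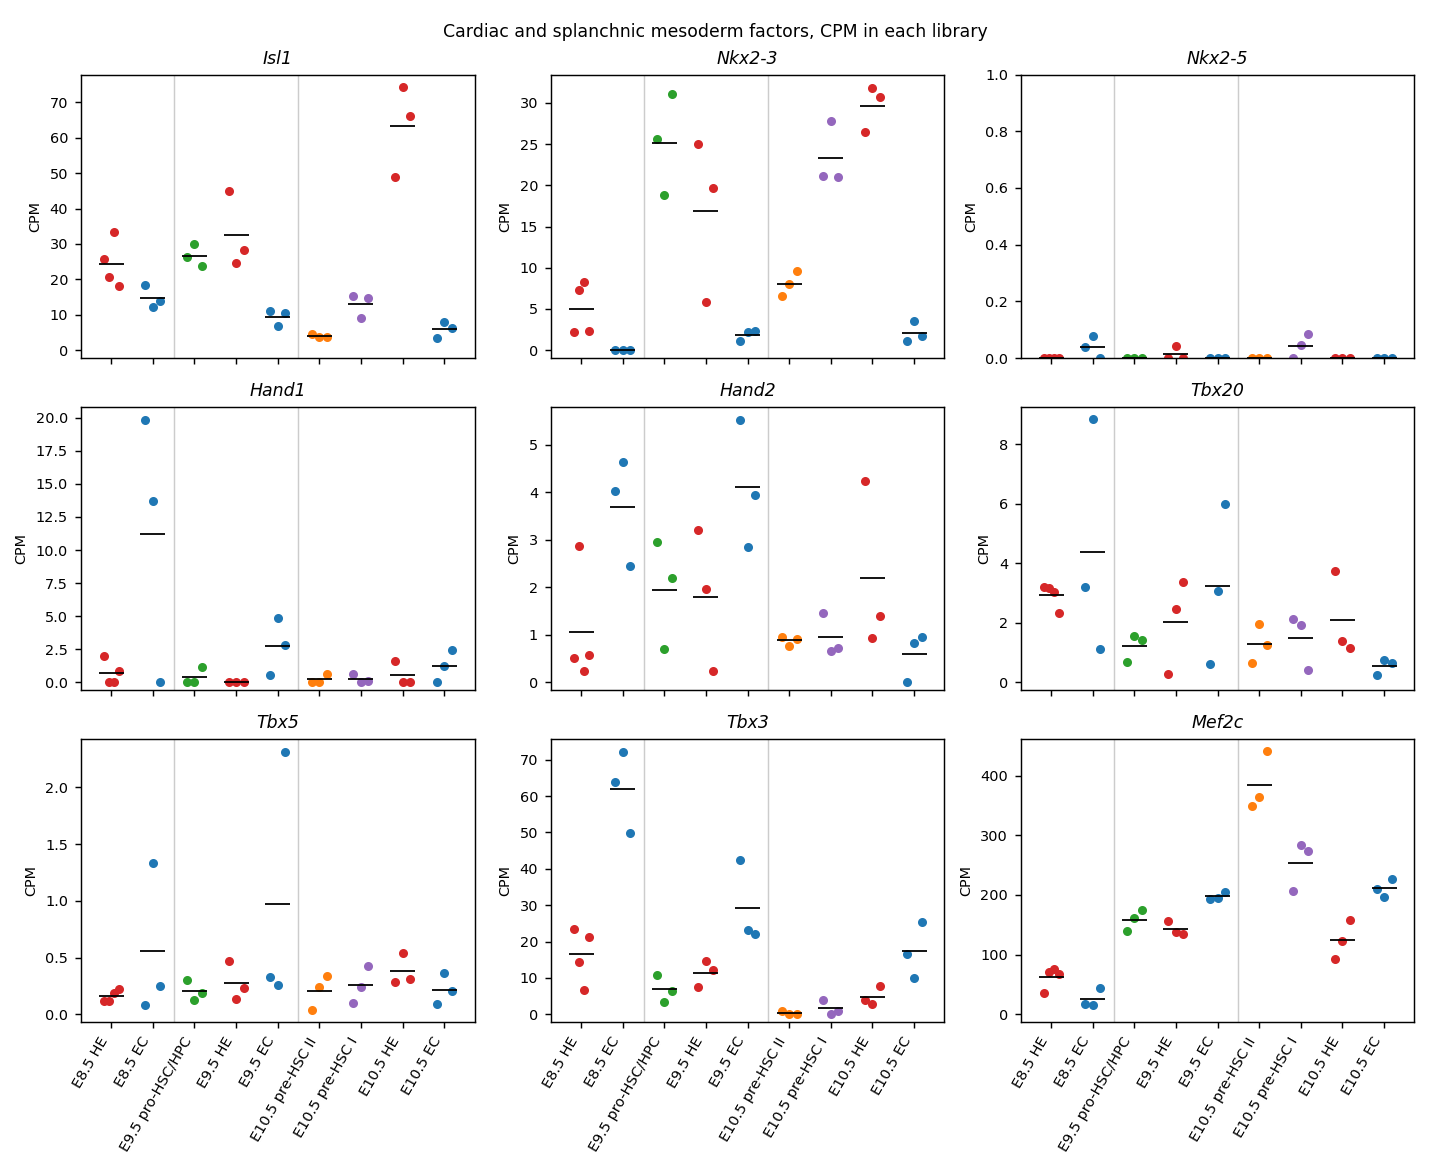
CPM of the 9 genes (y axes differ, linear) in each library (points), with the mean of each population (line); grey lines separate the days. Isl1 is highest in E10.5 HE (mean 63.2 CPM), Tbx3 in E8.5 EC (62.0), Mef2c in pre-HSC II (384.6), and Nkx2-5 stays at or under 0.0844 CPM in all 28 libraries.

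Isl1 and Nkx2-3 were higher in HE than in EC, Isl1 from E9.5 and Nkx2-3 at all 3 days. Isl1 had 25.9, 20.6, 33.3 and 18.1 CPM in the E8.5 HE libraries, against 18.3, 12.2 and 13.9 in E8.5 EC. The groups overlapped by a single EC library, and the difference did not pass the test (log2 0.73 ± 0.31 SE, edgeR adjusted p = 0.166). At E9.5 Isl1 had 45.1, 24.7 and 28.2 CPM in HE, against 11.1, 6.86 and 10.4 in EC. Each HE library was above each EC library, and the rise passed (log2 1.79 ± 0.34, edgeR adjusted p = 0.0091). At E10.5 it had 49.0, 74.3 and 66.3 CPM in HE, against 3.40, 8.04 and 6.38 in EC, a rise of 3.41 ± 0.36 on the log2 scale (edgeR adjusted p = 1.1e-06).

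The HE-EC difference of Isl1 itself differed between E10.5 and E8.5 (log2 2.69 ± 0.45, edgeR adjusted p = 0.00059). The comparison of E9.5 with E8.5 (1.06, adjusted p = 0.427) and that of E10.5 with E9.5 (1.63, adjusted p = 0.429) did not pass. Within each population over time, Isl1 in HE at E10.5 against E9.5 gave 0.95 ± 0.33 (adjusted p = 0.111), and in EC at E9.5 against E8.5 -0.65 ± 0.33 (adjusted p = 0.169). Over all genes tested, 2.99% were called for the change between E8.5 and E10.5, 0.847% between E8.5 and E9.5 and 0.0131% between E9.5 and E10.5.

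Nkx2-3 had 2.25, 7.30, 8.22 and 2.28 CPM in the E8.5 HE libraries, against 0 counts in each E8.5 EC library (edgeR adjusted p = 1.4e-06). With 472 counts over HE and a floor of 3 counts over the EC group, the pooled level was at least 109.5-fold higher in HE. This bound covers counting error only, not the spread between libraries. At E9.5 Nkx2-3 had 24.9, 5.85 and 19.7 CPM in HE, against 1.16, 2.16 and 2.36 in EC (log2 3.15 ± 0.57, edgeR adjusted p = 0.0075). The HE libraries spread widely, and replicate 2 was the low one. At E10.5 it had 26.5, 31.8 and 30.7 CPM in HE, against 1.07, 3.50 and 1.71 in EC (log2 3.83 ± 0.58, edgeR adjusted p = 0.000298), with tight HE values.

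Of the 8 tested members, 2 were called at each of the 3 days, all higher in HE (Nkx2-3 and Mef2c at E8.5, Isl1 and Nkx2-3 at E9.5 and E10.5). Over all 15238 genes tested, 6.81% were called at E8.5 (5.08% higher), 0.302% at E9.5 (all higher) and 3.48% at E10.5 (2.11% higher). With the replicate number as a block within each day, which pairs the libraries at E8.5 and E9.5, 3 members were called at E8.5, Tbx3 lower and the others higher, and 2 at E9.5, both higher. In the same comparisons without the block, 4, 3 and 5 members had an unadjusted p under 0.05. The share of all genes at that unadjusted threshold is not given, so these counts have no baseline. The members' median log2 difference was -1.17 at E8.5, -0.92 at E9.5 and 1.33 at E10.5, against 0, -0.01 and -0.0048 over all genes tested. The low members Hand1, Hand2, Tbx20 and Tbx5 weigh in these medians as much as the others. At E8.5 the median fell between Tbx5 (-1.76) and Tbx20 (-0.58), neither of them called. The medians are therefore no measure of a shift shared by the members. At E9.5 the calls rested on few libraries: Isl1 lost its call without EC replicate 2 (adjusted p = 0.143) or HE replicate 1 (0.125), and Nkx2-3 without EC replicate 1 (0.0910), EC replicate 2 (0.0765) or HE replicate 1 (0.0529). Without the 4 mesenchyme-rich libraries the E9.5 log2 differences were 1.87 for Isl1 and 3.36 for Nkx2-3, each with an adjusted p of 0.0533; at E10.5 they were 3.86 and 4.5 and passed (adjusted p = 2.6e-05 and 0.0017). Since each library is a pool, fewer cells with Isl1 and less Isl1 RNA per cell cannot be told apart, here or for any member.

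**Figure D2:**
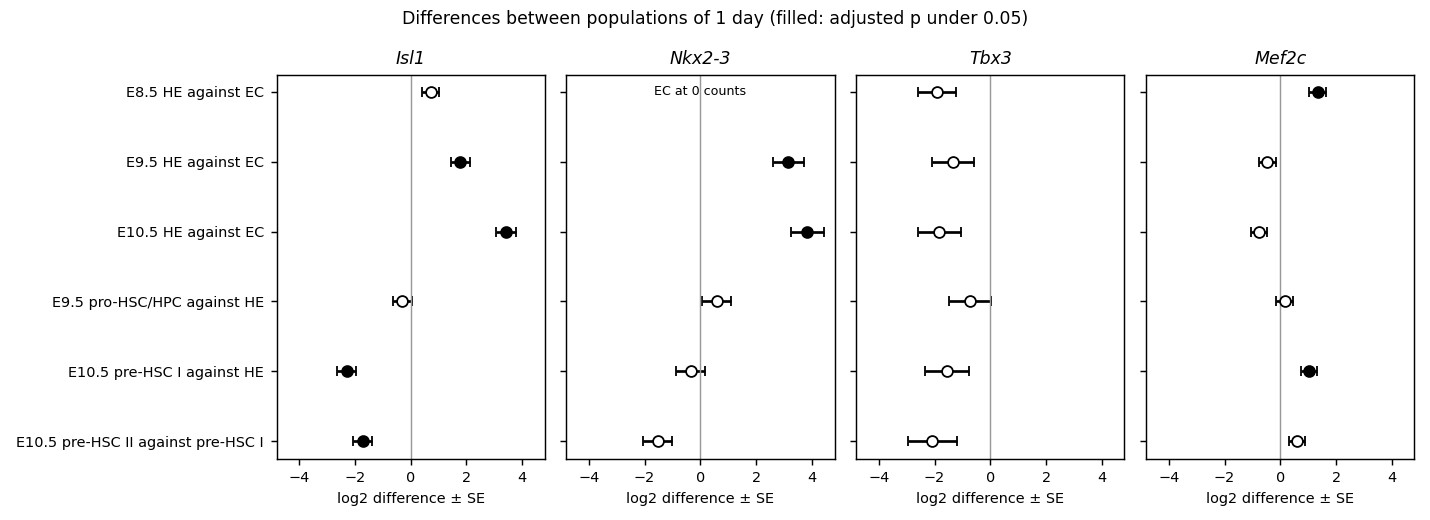
Log2 difference ± SE (edgeR) of 4 members in the 6 comparisons within a day, with filled points where the adjusted p was under 0.05; no value is drawn for Nkx2-3 at E8.5, where EC had 0 counts. Isl1 rises in HE over EC at E9.5 (1.79) and E10.5 (3.41) and falls in pre-HSC I (-2.28) and pre-HSC II (-1.71). Tbx3 is below 0 throughout and filled nowhere. The fit drawn is unpaired. With the replicate number as a block within each day, Tbx3 passed at E8.5 (edgeR adjusted p = 0.0429).

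On the blood side, Isl1 fell at both E10.5 steps, while Nkx2-3 did not pass the edgeR test over all libraries at either and passed at the pre-HSC II step under some alternatives. Isl1 had 15.3, 9.14 and 14.7 CPM in pre-HSC I, well below the 49.0 to 74.3 CPM of the HE libraries (log2 -2.28 ± 0.34, edgeR adjusted p = 0.000137). It had 4.63, 3.70 and 3.64 CPM in pre-HSC II, each below each pre-HSC I library (log2 -1.71 ± 0.34, edgeR adjusted p = 0.0016). At E9.5 no difference was called, with 26.4, 30.1 and 23.8 CPM in pro-HSC/HPC, against 45.1, 24.7 and 28.2 CPM in HE (log2 -0.29 ± 0.33, adjusted p = 1). The step from HE to blood was not shown to differ between the days for Isl1 (difference of differences -1.99 ± 0.46, edgeR adjusted p = 0.077, and 0.0049 with DESeq2; 0.0722% of all genes were called with edgeR). Without the 3 erythroid-rich libraries, which leaves pro-HSC/HPC with a lone library whose variance is taken from the rest, it was -2.06 (adjusted p = 0.504).

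Nkx2-3 had 21.2, 27.9 and 21.1 CPM in pre-HSC I, against 26.5, 31.8 and 30.7 in HE (log2 -0.35 ± 0.51, adjusted p = 0.784). It had 6.58, 7.97 and 9.63 CPM in pre-HSC II, each below each pre-HSC I library (log2 -1.53 ± 0.53, edgeR adjusted p = 0.134; 0.0495 with DESeq2 and 0.0227 in a fit of those 2 groups alone). In pro-HSC/HPC it had 25.7, 18.8 and 31.1 CPM (log2 0.58 ± 0.52 against HE, adjusted p = 1). In a comparison added after seeing the data, pre-HSC II against HE, Isl1 fell by 3.98, Nkx2-3 by 1.88 and Tbx3 by 3.64, while Mef2c rose by 1.63 on the log2 scale (edgeR adjusted p = 5.2e-09, 0.012, 0.0036 and 0.00023). These are 4 of the 8 tested members, where 21.4% of all genes tested were called. Between pre-HSC I and HE 2 members were called (Isl1 lower, Mef2c higher), with 6.88% of all genes called. At the next step to pre-HSC II 1 member was called (Isl1 lower), with 4.42% of all genes, 652 of them lower and 21 higher. For pro-HSC/HPC against HE edgeR called 0 members, of which 0 had an unadjusted p under 0.05, and 0.656% of all genes.

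**Figure D3:**
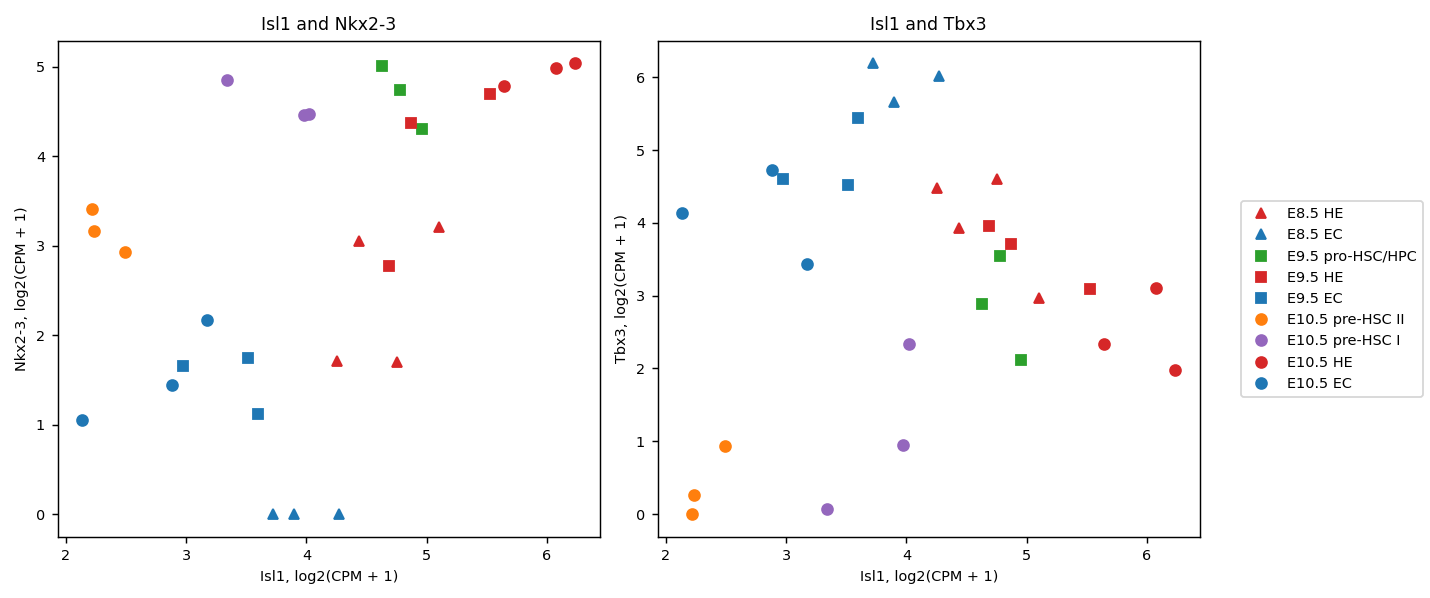
Left, log2(CPM + 1) of Isl1 against Nkx2-3, and right, Isl1 against Tbx3, 1 point per library, coloured by population and shaped by day. HE lies at high Isl1 and high Nkx2-3 at E10.5, and pre-HSC I lies at high Nkx2-3 (mean 23.4 CPM) at lower Isl1 (13.0 CPM). Within each day EC lies above HE in Tbx3. Over all days only E8.5 EC stands clear, and E10.5 EC (9.86 to 25.5 CPM) overlaps E8.5 HE (6.80 to 23.4 CPM).

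Tbx3 had lower values in HE than in EC at each day. It did not pass the unpaired edgeR test over all libraries at any day, and passed at E8.5 with the libraries paired. It had 23.4, 14.3, 6.80 and 21.3 CPM in E8.5 HE, against 63.9, 72.2 and 49.8 in E8.5 EC. No HE library reached an EC library, and the log2 difference was -1.91 ± 0.69 (edgeR adjusted p = 0.096; 0.0429 with the replicate number as a block within each day, and 0.0488 with DESeq2). At E9.5 it had 7.56, 14.5 and 12.1 CPM in HE, against 42.3, 23.2 and 21.9 in EC (-1.35 ± 0.75, adjusted p = 0.85). At E10.5 it had 4.03, 2.95 and 7.64 CPM in HE, against 16.5, 9.86 and 25.5 in EC (-1.83 ± 0.77, adjusted p = 0.231). Averaged over the 3 days, a comparison added after seeing the data, Tbx3 was lower in HE (-1.70 ± 0.43, edgeR adjusted p = 0.010), Isl1 was higher by 1.98 and Mef2c did not pass (0.03 ± 0.17). There 4 of the 8 members were called, Isl1 and Nkx2-3 higher and Tbx3 and Hand1 lower, where 10.7% of all genes tested were called.

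Tbx3 had 10.7, 3.33 and 6.39 CPM in pro-HSC/HPC, overlapping HE (-0.74 ± 0.75, edgeR adjusted p = 1). In pre-HSC I it had 4.04, 0.0476 and 0.928 CPM, and in pre-HSC II 0.918, 0.203 and 0 CPM, the lowest level of the 9 populations. The high pre-HSC I library, replicate 1, is one of the 4 mesenchyme-rich ones (level 3.6, against 1.85 and 2.49); the part of these cells in the value was not tested. Without that library, Tbx3 in pre-HSC I against pro-HSC/HPC had a log2 difference of -3.75 and an adjusted p of 0.039, against -2.03 and 0.26 with it, where 1.45% of all genes were called. With all 4 mesenchyme-rich libraries left out the difference was also -3.75, with an adjusted p of 0.0532, which did not pass. Tbx3 in pre-HSC II against pre-HSC I had a log2 difference of -2.09 ± 0.88 (edgeR adjusted p = 0.3), and -0.36 without the mesenchyme-rich library.

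Mef2c, a MADS-box factor, was higher in HE than in EC at E8.5 and did not pass between them at the later days. It had 36.2, 71.4, 75.9 and 67.0 CPM in E8.5 HE, against 16.5, 15 and 43.4 in E8.5 EC (log2 1.33 ± 0.29, edgeR adjusted p = 0.0048). The groups overlapped by EC replicate 3, and in a fit of these 2 groups alone the adjusted p was 0.151. At E9.5 it had 157, 137 and 134 CPM in HE, against 193, 195 and 205 in EC (-0.47 ± 0.30, adjusted p = 0.923). At E10.5 it had 93.1, 123 and 158 CPM in HE, against 209, 197 and 227 in EC (-0.76 ± 0.30, adjusted p = 0.188). The HE-EC difference fell by 1.80 between E8.5 and E9.5 (edgeR adjusted p = 0.028) and by 2.09 between E8.5 and E10.5 (0.0033); the first of these lost its call in 10 of the 20 alternatives run.

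With time, Mef2c rose in HE at E9.5 over E8.5 by 1.19 ± 0.28 (edgeR adjusted p = 0.011) and in EC by 2.99 ± 0.32 (5.5e-07). Over the same days 6.54% of all genes tested were called in HE (2.97% higher) and 19.7% in EC (10.1% higher). Nkx2-3 rose in HE by 1.75 ± 0.49 (edgeR adjusted p = 0.031), a call lost in 6 of 13 alternatives. In EC, where the 3 E8.5 libraries had 0 counts, its pooled level rose by at least 41.6-fold, by counting error only. Between E9.5 and E10.5 edgeR called 0 members in HE and 0 in EC, where 3.64% and 0.761% of all genes were called. In each, 2 members had an unadjusted p under 0.05, with no share of all genes given at that threshold. DESeq2 called Isl1 in HE (adjusted p = 0.0366).

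Mef2c had 207, 283 and 273 CPM in pre-HSC I, each above each E10.5 HE library (1.03 ± 0.30, edgeR adjusted p = 0.035). This call was lost without HE replicate 1 (0.14) or 2 (0.105), without pre-HSC I replicate 2 (0.128) or 3 (0.0949), and without the mesenchyme-rich (0.134) or erythroid-rich libraries (0.122). It had 349, 365 and 441 CPM in pre-HSC II, above all other populations, though the step from pre-HSC I did not pass (0.60 ± 0.30, adjusted p = 0.445). It had 139, 162 and 175 CPM in pro-HSC/HPC, overlapping the E9.5 HE libraries. From high to low, the mean of Mef2c was highest in pre-HSC II (385 CPM), then pre-HSC I (254), E10.5 EC (211), E9.5 EC (198), pro-HSC/HPC (159), E9.5 HE (143), E10.5 HE (125), E8.5 HE (62.6) and E8.5 EC (25.0). Neighbours in that order whose libraries did not overlap were pre-HSC II and pre-HSC I, E9.5 EC and pro-HSC/HPC, and E10.5 HE and E8.5 HE.

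The other members had other orders. Isl1 was highest in E10.5 HE (63.2 ± 12.9 CPM, SD, n = 3), which stood clear of the next population, E9.5 HE (32.7 ± 10.9), while all later neighbours overlapped down to pre-HSC II (3.99 ± 0.555). The mean of Nkx2-3 followed the order E10.5 HE (29.7 ± 2.80), pro-HSC/HPC (25.2 ± 6.16), pre-HSC I (23.4 ± 3.89) and E9.5 HE (16.8 ± 9.87), all overlapping, and only its lowest step, E9.5 EC over E8.5 EC, did not overlap. In Tbx3 the 3 EC populations led, from E8.5 (62.0 ± 11.3) through E9.5 (29.2 ± 11.4) to E10.5 (17.3 ± 7.84), and only E8.5 EC stood clear of its neighbour. In CPM per kilobase of exon, E10.5 HE had 25.0 for Isl1, 19.0 for Mef2c, 14.0 for Nkx2-3 and 1.01 for Tbx3, whereas pre-HSC II had 1.58, 58.6, 3.82 and 0.0773.

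The remaining members were low, apart from Hand1 in E8.5 EC (mean 11.2 CPM). Hand1, a basic helix-loop-helix factor of the heart and of extraembryonic mesoderm, had 2.02, 0, 0 and 0.851 CPM in E8.5 HE, against 19.9, 13.7 and 0 in E8.5 EC. The EC libraries themselves were split, replicate 3 being at 0. At E9.5 it had 0 in all 3 HE libraries, against 0.582, 4.83 and 2.84 in EC, with an edgeR adjusted p of 0.488 (0.0476 in a fit of those 2 groups alone). The pooled level of Hand1 was at least 59.4-fold lower by the 3-count floor, a bound that covers counting error only. At E10.5 it had 1.62, 0 and 0 CPM in HE and 0, 1.20 and 2.46 in EC. Averaged over the 3 days it was called lower in HE (edgeR adjusted p = 0.037), and the call was lost in 9 of 25 alternatives. Its size is not given, since the E9.5 HE libraries are at 0.

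Hand2, its paralog, averaged 0.597 to 4.11 CPM over the populations, and no comparison passed. In E10.5 HE it had 4.25, 0.934 and 1.40 CPM, the high library being the mesenchyme-rich replicate 1. Tbx20 averaged 0.547 to 4.38 CPM, with 3.75, 1.38 and 1.14 CPM in E10.5 HE, where replicate 1 was again the high one. In E9.5 EC, Tbx20 had 0.624, 3.06 and 5.99 CPM and Tbx5 0.333, 0.259 and 2.32 CPM, both highest in mesenchyme-rich replicate 3. Whether mesenchymal cells gave these counts was not tested. Tbx5, needed for the left ventricle and the forelimb, averaged 0.161 to 0.97 CPM.

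Nkx2-5, the homeodomain factor of cardiac progenitors, did not pass the filter: 23 of 28 libraries had 0 counts and no library had more than 2 counts. Its highest value was 0.0844 CPM. With a floor of 3 counts over a group, a population in which all libraries were at 0 could hold up to 0.0315 CPM (E8.5 HE) to 0.0481 CPM (E10.5 EC).

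Heart muscle and sympathetic neurons also use Isl1 or its partners, so their markers were counted. The contractile heart muscle list averaged 1.17 in HE against 1.07 in EC at E9.5, and 1.21 against 0.81 at E10.5; 1 of its 15 tested genes was called between E10.5 HE and EC, the troponin Tnni1 (15 against 1.90 CPM). Cardiac actin Actc1 averaged 56.7 ± 82.4 CPM in E10.5 HE against 3.59 ± 3.31 in EC (SD, n = 3 each) and was not called (edgeR adjusted p = 0.155). The summed level of the heart muscle list at E10.5 ran from 44.3 to 188 CPM in HE, against 18.4 to 22.9 CPM in EC. Among its genes chosen after their values were seen, Myh6 and Myh7 were at most 0.459 CPM and Nppa at most 0.161 CPM in any population. In the sympathoadrenal list, Th and Dbh were at most 0.0164 CPM, while Stmn2, a neuronal stathmin, averaged 484 CPM in HE against 83.5 in EC at E10.5 (edgeR adjusted p = 0.067); the list's summed level at E10.5, nearly all of it Stmn2, ran from 431 to 577 CPM in HE, against 69.9 to 98.3 CPM in EC, and its mean log2(CPM + 1) was 0.99 in HE against 0.83 in EC. Of 6 tested endocardium genes, 3 were called higher and 0 lower in HE at E8.5, 1 higher and 0 lower at E9.5, and 3 higher and 1 lower at E10.5, beside 6.81%, 0.302% and 3.48% of all genes called in either direction. The median log2 difference of these genes was 2.12, 2.13 and 2.43 on those days. Npr3, the clearance receptor for natriuretic peptides, averaged 96.2 CPM in E8.5 HE against 3.99 in EC, and 219 CPM in E10.5 HE against 29.9 in EC. Nfatc1, a factor of the valve endocardium chosen after its values were seen, averaged 31.6 CPM in HE against 24.4 in EC at E10.5. It was not called, and it is 1 gene of a list whose median was higher in HE on each day. Of 8 tested endothelium genes, 5 were called higher in HE at E8.5, 0 at E9.5 and 0 at E10.5, and of 9 blood genes 1 was higher and 1 lower at E8.5, 1 higher at E9.5 and 5 higher at E10.5. In the mesonephros, endoderm and erythroid lists no gene was called between HE and EC within a day. At E8.5 Tagln of the mesenchyme list was higher in HE (26.6 against 0.932 CPM), and Meox2 of the limb and body wall list was lower (0.155 against 9.65 CPM). The mesenchyme list as a whole averaged 1.45 in HE against 1.62 in EC at E8.5, with overlapping libraries. The part of such cells in the Isl1 and Nkx2-3 values was not tested.

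**Figure D4:**
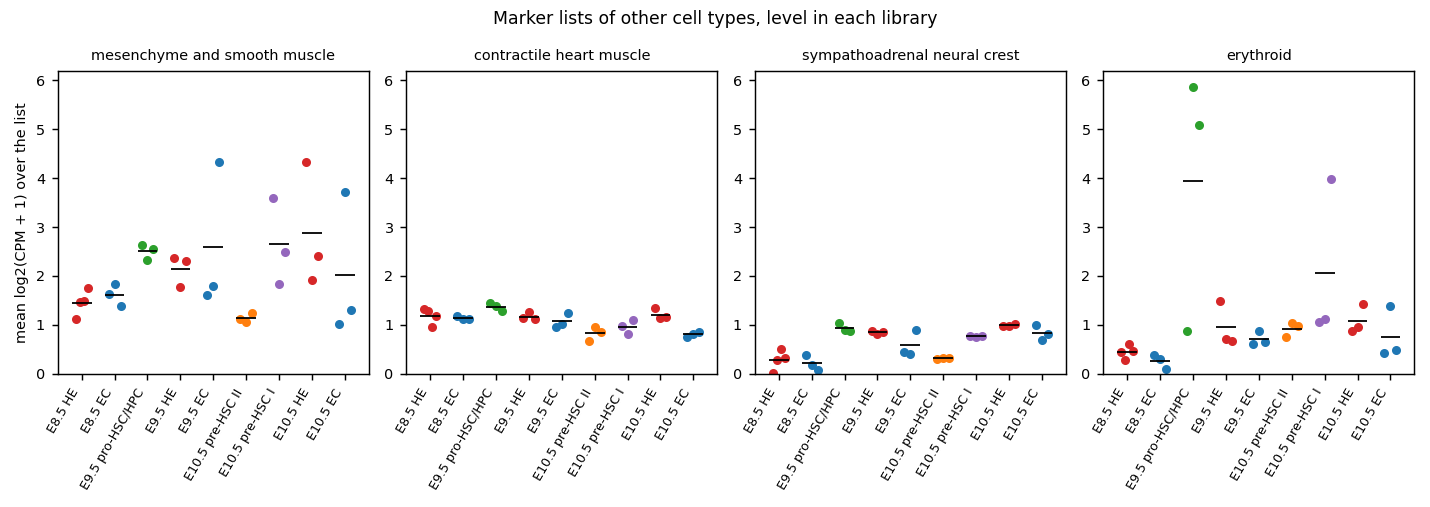
Level of 4 marker lists (mean log2(CPM + 1) over each list) in each library (points) with the population mean (line). The mesenchyme list stands apart in 4 libraries and the erythroid list in 3. The contractile heart muscle list lies between 0.66 and 1.44 in all libraries. At E10.5 it runs from 1.14 to 1.34 in HE, above the 0.76 to 0.85 of EC.

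Of 22 tested upstream and partner factors of cardiac mesoderm, 4 were called higher and 0 lower in HE at E8.5 (among them Eya1 with 3.32 CPM against 0 in EC, Tcf4 with 131 against 71.9, and Foxc1 with 5.90 against 1.06), 0 at E9.5, and 1 higher and 1 lower at E10.5. The GATA factor Gata6 averaged 104 ± 39.9 CPM in E10.5 HE against 24.0 ± 16 in EC (SD, n = 3 each; log2 2.12 ± 0.55, edgeR adjusted p = 0.029), and Tcf4 was the lower one (117 against 218 CPM). Beside these HE-EC counts, 6.81%, 0.302% and 3.48% of all genes tested were called at E8.5, E9.5 and E10.5. In pre-HSC I against HE 3 of the factors were lower and none higher, beside 6.88% of all genes called. These were Gata6 (20.2 against 104 CPM), Foxc2 (5.09 against 21.0) and Foxh1 (0 in all libraries against 0.70). In pre-HSC II against pre-HSC I 4 were lower, Foxc2, Foxf1, Gata6 and Foxc1, Gata6 having 2.87 against 20.2 CPM. Of all genes tested 4.42% were called at that step, 652 lower and 21 higher. Gata4 was at most 2.34 CPM in any population.

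Among 13 tested genes reported as targets of these factors, Gja5, the arterial connexin 40 that Nkx2-5 and Tbx5 activate in the heart, was higher in HE at each day. It averaged 35.3 CPM in E8.5 HE against 0.116 in EC, 170 against 16.7 at E9.5, and 414 against 32.4 at E10.5 (edgeR adjusted p = 4.2e-07, 0.0048 and 0.00035). In all, 1 target rose and 2 fell in HE at E8.5, 2 rose and 0 fell at E9.5, and 2 rose and 1 fell at E10.5. Over all genes tested, 6.81%, 0.302% and 3.48% were called on those days in either direction. At E8.5 the falls were Cited1 (1.82 against 26.6 CPM) and Etv2, the ETS factor of early blood and vessel progenitors (78.1 against 421 CPM). Hey2, a Notch target, had 106 CPM in E10.5 HE against 6.40 in EC, and Gja1, connexin 43, 135 against 344 CPM. In the splanchnic mesoderm list, of 9 tested genes, Bmp4 was higher in HE at E8.5 (28 against 9.71 CPM) and lower at E10.5 (8.35 against 88.3 CPM). Of 2 tested MEF2 relatives and 9 other T-box genes, none was called between HE and EC within a day.

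By likeness of log2(CPM + 1) over the 9 population means, the genes most like Isl1 were Smad7 (Pearson r = 0.968), Ldlrad4 (0.959) and Prdx4 (0.949), among 9232 genes. Nkx2-3 was most like Ltbp1 (0.982), Ocln (0.975) and Slc18a2 (0.974). Tbx3 was most like P4ha1 (0.982), Cfdp1 (0.971) and Atp8b2 (0.969), and Mef2c most like Galc (0.993), Acsl5 (0.987) and Elf4 (0.982). For the other tested members the closest were Gga3 for Hand1 (0.956), Clcn3 for Hand2 (0.869), Vps36 for Tbx20 (0.924) and Sdccag3 for Tbx5 (0.896). These are descriptions over 9 means that share libraries and depth. Between members, r over the 9 means was 0.51 for Isl1 and Nkx2-3, -0.74 for Tbx3 and Mef2c and -0.72 for Nkx2-3 and Tbx3.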

How the data were processed

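The authors deposited whole-number counts of reads for each gene, with no normalization, for all 28 libraries, made from polyA RNA with a low-input SMARTer kit per the labels' protocols. Per the submitters' processing notes the build was mm9 and the tools named, with no role given, were featureCounts 1.6.2, Subread, SAMtools and TopHat; how strand and reads with several matches were handled is unstated. Gene lengths in the deposited table served for CPM per kilobase. Groups and replicate numbers are the labels'; since nothing ties replicates to separate litters, their spread, and so each p-value, may be technical only. Replicates all differed beyond sampling noise (lowest chi-square per df 38.9). By correlation of log2(CPM + 1), the least alike were E8.5 EC replicate 3 with replicates 1 and 2 (r 0.942 and 0.944). That library enters every E8.5 HE-EC comparison.

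The main test was edgeR 4.0.16 (quasi-likelihood, TMM; R 4.3.3) in 1 fit of all 28 libraries with a coefficient per population. filterByExpr with a minimum count of 10 kept 15238 genes, and p was adjusted by Benjamini-Hochberg over them and called under 0.05. An SE is the log2 difference divided by the root of its F value. DESeq2 1.42.0 was an alternative. Fold bounds use a floor of 3 counts over a group and cover counting error only. The code was tested on simulated data.

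The members and 15 other lists were chosen with earlier results of these data known. Named were all members, up to 4 genes of smallest p per list and comparison, the 3 genes of highest correlation per member, and Runx1, Cdh5 and Ptprc; Nfatc1, Myh6, Myh7, Nppa, Th, Dbh, Stmn2, Actc1 and Gata4 were chosen after their values were seen. Same-numbered libraries deviated together, every pair over 0.1, for HE and EC at E8.5 (r 0.174 to 0.215 over genes) and E9.5 (0.105 to 0.279). The same held for pro-HSC/HPC and HE (0.135 to 0.344), so the numbers were taken as pairing there. The main fit did not use that pairing, so its calls at E8.5 and E9.5 are unpaired. The block within day, chosen after seeing the data, used it.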

Additional observations from a re-analysis of the deposited data

Results flagged for a closer look

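Hand2 had 2.88 CPM in E8.5 HE replicate 2, apart from the other 3 libraries of that group (0.238 to 0.582 CPM). Tbx20 had 2.33 CPM in E8.5 HE replicate 4, below the other 3 (3.04 to 3.18 CPM). Chance marks about 5% of groups this way.

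The difference between HE and EC itself differed from that at E8.5, by edgeR's test of that change, in 5 cases. For Isl1 the log2 change was 2.69 at E10.5. For Mef2c it was -1.80 at E9.5 and -2.09 at E10.5. For Nkx2-3 the fitted changes were -6.70 at E9.5 and -6.02 at E10.5; both rest on the E8.5 EC libraries, which had 0 counts, and are no bound.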

How the results depend on the processing

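The alternatives were DESeq2, DESeq2 size factors, no filter, a stricter filter, a replicate block, a fit of only the groups compared, and each library left out. Chosen after seeing the data were a replicate block within day, leaving out the mesenchyme-rich or the erythroid-rich libraries, and the comparisons of HE with EC over the 3 days and of pre-HSC II with HE. No called difference of a member changed sign under these. With only the groups compared, members called came to 1 (2 in the full fit) for E8.5 HE against EC, 0 (2) and 1 (3) for the change of the HE-EC difference at E9.5 and E10.5 against E8.5, 1 (2) for HE at E9.5 against E8.5, 1 (0) for the blood step and 2 (1) for the pre-HSC II step. DESeq2 gave 2 (1) for the pre-HSC II step, 1 (0) for HE at E10.5 against E9.5 and 1 (0) for the blood step. The replicate block gave 1 (2) for HE at E9.5 against E8.5, and the block within day 2 (1) for the pre-HSC II step (Nkx2-3 lower, edgeR adjusted p 0.0463). Without the mesenchyme-rich libraries the counts were 0 (2) for E9.5 HE against EC and 1 (2) for the change at E9.5; without the erythroid-rich, 1 (2) for pre-HSC I against HE. Members called also came to 3 (2), the added call being lower, for E8.5 HE against EC with DESeq2 and with the block within day (Tbx3 in both), for E10.5 HE against EC with the block within day (Mef2c), and with only the groups compared for E9.5 HE against EC (Hand1) and for EC at E9.5 against E8.5. All genes called varied too under these alternatives. They ran from 525 to 1092 for HE at E10.5 against E9.5 (555 in the full fit) and 501 to 938 for the pre-HSC II step (673). For HE at E9.5 against E8.5 they ran from 469 to 1804 (997), and for pre-HSC I against HE from 656 to 2327 (1049). For the changes at E9.5 and E10.5 against E8.5 they ran from 75 to 308 (129) and 238 to 845 (455). The causes were not tested.

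With 1 library left out in turn, members called ran from 2 to 2 for HE against EC at E8.5 and at E10.5 and for EC at E9.5 against E8.5, 0 to 2 for E9.5 HE against EC and HE at E9.5 against E8.5, 1 to 3 for pre-HSC I against HE, 1 to 1 for the pre-HSC II step, 0 to 1 for pre-HSC I against pro-HSC/HPC, 1 to 2 and 2 to 3 for the changes at E9.5 and E10.5, 3 to 4 for both added comparisons, and 0 to 0 elsewhere. Without E10.5 HE replicate 1, Hand1 in HE at E10.5 against E9.5 gave no value, both groups being at 0. All genes called between HE and EC were 1038 at E8.5 (582 to 1373 with 1 library left out, 191 to 2193 under the other alternatives). They were 46 at E9.5 (11 to 38 and 25 to 174) and 530 at E10.5 (284 to 455 and 389 to 1316). With 1 library left out, all genes called ran from 264 to 1529 for HE at E9.5 against E8.5 (997 in the full fit). They ran from 512 to 1091 for pre-HSC I against HE (1049), 57 to 181 for pre-HSC I against pro-HSC/HPC (221) and 3 to 61 for the blood step (11). Where same-numbered libraries did not all correlate above 0.1, the block within day gave Mef2c -0.79 for E10.5 HE against EC (edgeR adjusted p 0.0150). Counts of Nkx2-5, Tbx5 and Hand1 near the floor limit what could be detected.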
